A study of Arabidopsis thaliana with 4 samples.

Results

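The genes described here are FLC (AT5G10140) and its closest relatives among the MADS-box flowering repressors, which are FLM, also called MAF1 (AT1G77080), MAF2 (AT5G65050), MAF3 (AT5G65060), MAF4 (AT5G65070) and MAF5 (AT5G65080). With them stand the repressor SVP (AT2G22540), which acts with this family, and FT (AT1G65480) and SOC1 (AT2G45660), the genes on which flowering signals converge. They are 9 of the 25356 Arabidopsis thaliana genes with a probe on the array, and every non-control probe whose transcript belongs to 1 of these 9 loci was taken, which gave 21 of 43533 probes. The set was chosen by measured values of these same arrays, the log2 differences between the groups, in which FLC was among the lowest, together with the place of each gene in the family or pathway. The differences of the 9 genes between the groups are therefore given as a description, with no test.

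Total RNA of whole seedlings was hybridised to 4 one-colour Agilent arrays, 2 for the ced2 mutant and 2 for its wild type. The ced2 group is the ced2 mutant in the gl1 Columbia background. The WT group is wild type for ced2, carries luciferase under the NCED3 promoter and has the same gl1 Columbia background. Both groups were 14 d old, grown at 22 °C in long days (16 h of light, then 8 h of dark), and both had been kept for 6 h in 40% polyethylene glycol, an osmotic stress that dries the plants, so the arrays hold no unstressed plants. Each RNA was a pool of 20 plants, the labels call the 2 arrays of a group biological replicates, and they name 1 mutant line.

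As background, FLC and the MAF proteins are MADS-box transcription factors that hold back flowering by repressing FT and SOC1. FLM and SVP bind together and tune flowering to ambient temperature, vernalization silences FLC through Polycomb proteins, and the autonomous pathway keeps FLC low without cold. FT is the mobile signal made in leaves under long days, and SOC1 is a MADS-box activator in the shoot apex that responds to FT. FRIGIDA is the main activator of FLC, and Columbia flowers early without vernalization.

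The signs given below rest on the labels of the scanner files. Groups are called "ced2 files" and "WT files" after those labels. Each column of the authors' value table matched a scanner file of the opposite genotype (r = 0.999999 across probes for all 4 columns), so under the labels of that table every sign below would turn round. VSR1, a vacuolar sorting receptor known as the gene affected in ced2, had log2 signals of -0.85 and -0.82 in the ced2 files, against 2.80 and 2.87 in the WT files, and so was lower in the files labelled as the mutant. The 75th percentile of the processed signal was 3724 and 4465 on the ced2 arrays, against 3342 and 2807 on the WT arrays, and between 73.9% and 78.1% of probes were well above background on each array. On the single slide, ced2 took positions 4 and 3 and WT took 1 and 2, and an effect of genotype and one of slide position cannot be told apart.

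FLC was bright in the WT files and at background in the ced2 files on 2 of its 3 probes. The 3 probes were designed on 3 different FLC transcripts. Probe A_84_P10170 read 5.63 and 4.28 units of processed signal in ced2 replicates 1 and 2, against 717 and 604.5 in WT replicates 1 and 2. Probe A_84_P784401 read 6.65 and 4.11 units in the ced2 files, against 701 and 599 in the WT files. Neither probe was well above background on a ced2 array, both were on each WT array, and the groups were far from overlapping. The scanner's own error estimate was between 83.2% and 99.6% of those dim readings, and the median over member spots well above background was 10.01%. The signal was at least 41.4-fold and 40.8-fold lower in the ced2 files for these probes, with the lowest signal well above background on each ced2 array (26.5 and 16.9 units) in place of the dim readings.

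The remaining FLC probe, A_84_P784210, read 6.66 units in ced2 replicate 1 and 71.4 units in ced2 replicate 2, against 517 and 442 in the WT files. It was thus dim on 1 ced2 array and well above background on the other, while the WT arrays differed by little. That single spot sets it apart from the other FLC probes on the same array, and it also gives this probe the highest mean over the 4 arrays, the rule by which a probe represents a gene. On the log2 scale relative to the 75th percentile of each array, it stood at -7.55 ± 2.23 in the ced2 files and at -2.68 ± 0.02 in the WT files (SD, n = 2 each), a difference of -4.87. The corresponding fold is at least 14.6, with ced2 replicate 1 at the lowest signal well above background. Without ced2 replicate 1 the difference was -3.29, and without ced2 replicate 2 it was -6.45.

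**Figure D1:**
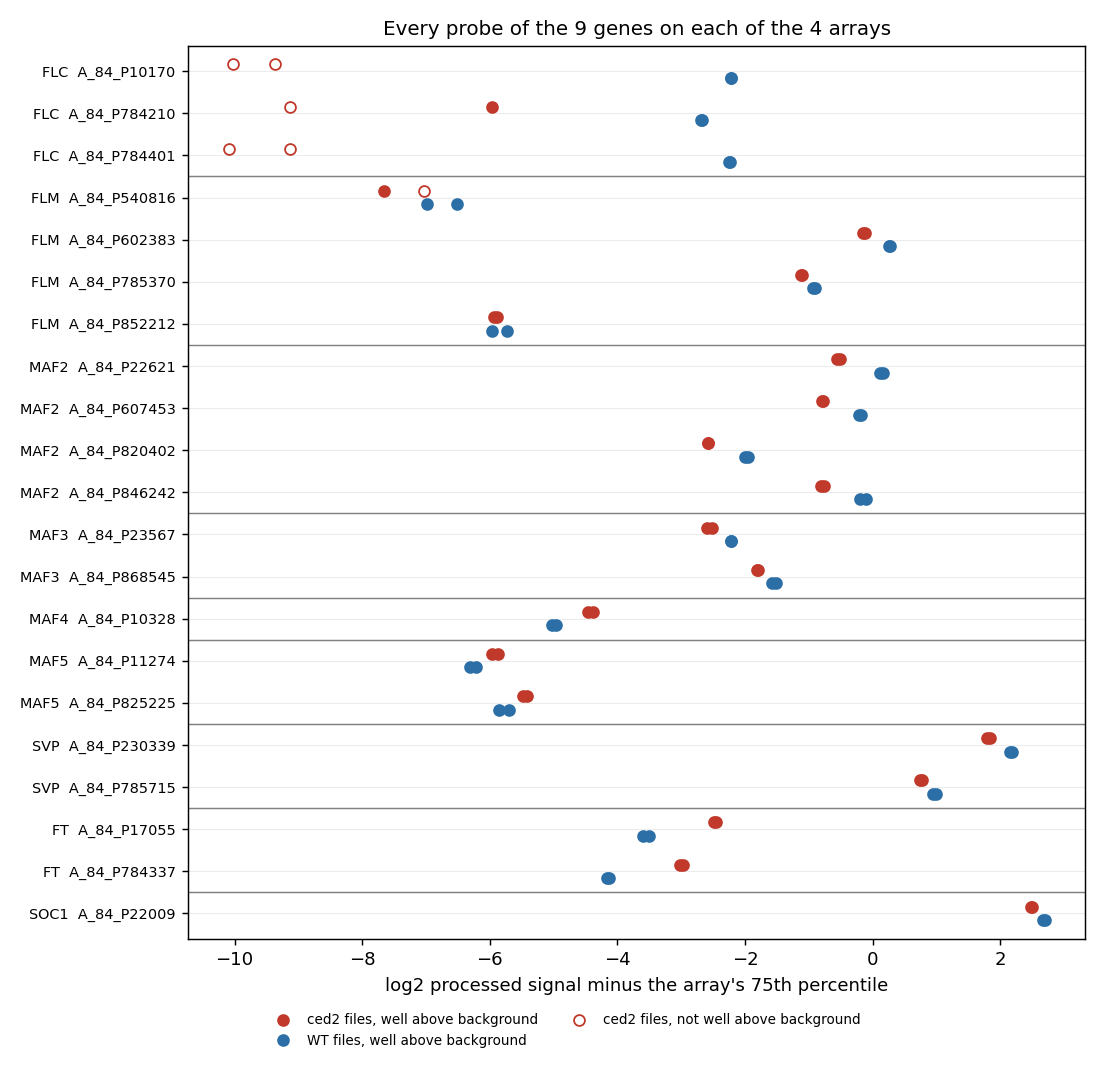
Each row is 1 probe of 1 gene, and the x axis is the log2 processed signal minus the 75th percentile of its array. Red points above the row line are the 2 ced2 files and blue points below it the 2 WT files, with open points for spots not well above background. The FLC probes lie between -10.09 and -5.97 in the ced2 files and between -2.69 and -2.22 in the WT files, the FT probes lie to the right in the ced2 files, and the probes that represent the other genes differ by -0.66 to 0.57 between groups.

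FT was higher in the ced2 files. Its probe A_84_P17055 read 665 and 813 units in the ced2 files, against 295 and 232 in the WT files. Its second probe, A_84_P784337, read 477 and 550 units in the ced2 files, against 191 and 156 in the WT files. Both probes were well above background on every array, and all ced2 readings lay above all WT readings before and after scaling. Unscaled, the ced2 arrays were brighter as a whole (log2 ratio of the 75th percentiles 0.41), which favours this direction. Relative to the 75th percentile, the first probe stood at -2.47 ± 0.02 in the ced2 files and -3.55 ± 0.07 in the WT files (SD, n = 2 each), a difference of 1.08, or 2.11-fold. The second probe gave 1.16, or 2.23-fold. With normexp background correction the differences were 0.59 and 0.27.

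SOC1 did not follow FT. Its single probe read 20729 and 25150 units in the ced2 files, against 21394 and 18218 in the WT files. Unscaled, the groups overlapped. After scaling SOC1 stood at 2.49 ± 0.01 in the ced2 files and 2.69 ± 0.01 in the WT files (SD, n = 2 each), a difference of -0.20. The log2 ratio of the 75th percentiles between the groups was 0.41, so the sign for SOC1 comes from the scaling, and it was 0.21 without it.

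SVP, the partner of FLC and FLM in repressing FT and SOC1, was lower after scaling on both of its probes. Probe A_84_P230339 read 13389 and 15437 units in the ced2 files, against 15259 and 12503 in the WT files. It stood at 1.82 ± 0.04 in the ced2 files and 2.17 ± 0.03 in the WT files (SD, n = 2 each), a difference of -0.36, and the second probe gave -0.21. The unscaled signals of the groups overlapped for both probes, and without scaling the differences were 0.06 and 0.20, so, as for SOC1, the sign comes from the scaling.

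FLM, whose splice forms respond to temperature, was measured by 4 probes designed on 3 transcripts. Probe A_84_P602383, which represents the gene, read 3427 and 4038 units in the ced2 files, against 4026 and 3373 in the WT files. It stood at -0.13 ± 0.02 in the ced2 files and 0.27 ± 0.003 in the WT files (SD, n = 2 each), a difference of -0.40. The probe A_84_P785370, on another transcript, differed by -0.20. Probe A_84_P852212, on yet another transcript, read 61.2 and 75.2 units in the ced2 files, against 53.7 and 52.6 in the WT files, and after scaling its groups overlapped, with a difference of -0.06. The remaining probe, A_84_P540816, was not well above background on ced2 replicate 1 and differed by -0.59, with replicates up to 0.63 apart. All 4 probes had the same sign after scaling, but without it 3 of them differed by 0.01, 0.21 and 0.35 and only the last, at -0.18, stayed below 0, and those of the first 2 differed in size by more than their replicates.

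MAF2, which delays flowering after short cold spells, was lower on all 4 of its probes by nearly equal amounts. Probe A_84_P22621, which represents it, read 2623 and 3050 units in the ced2 files, against 3617 and 3136 in the WT files. It stood at -0.53 ± 0.03 in the ced2 files and 0.14 ± 0.03 in the WT files (SD, n = 2 each), a difference of -0.66, or 1.58-fold lower. The other 3 probes, 1 of them on a second transcript, differed by -0.58 to -0.64. Before scaling the mean log2 differences of the 4 MAF2 probes were smaller, at -0.25 to -0.17. The unscaled readings of the groups did not overlap for A_84_P22621 but did for the other 3 probes.

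MAF3 shares its sign with MAF2 and was lower by less. Probe A_84_P868545 read 1068 and 1273 units in the ced2 files, against 1167 and 941 in the WT files, which overlap before scaling. It stood at -1.81 ± 0.01 in the ced2 files and -1.55 ± 0.04 in the WT files (SD, n = 2 each), a difference of -0.26, and the second MAF3 probe gave -0.34. Without scaling both differed above 0, by 0.15 and 0.07.

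MAF4 and MAF5, which follow MAF2 and MAF3 in the same gene cluster, were higher in the ced2 files. The MAF4 probe read 178 and 203 units in the ced2 files, against 107.2 and 85.9 in the WT files. It stood at -4.42 ± 0.05 in the ced2 files and -5.00 ± 0.05 in the WT files (SD, n = 2 each), a difference of 0.57, or 1.49-fold. Probe A_84_P825225 of MAF5 read 87.0 and 99.95 units in the ced2 files, against 57.5 and 54.1 in the WT files, a difference of 0.33 after scaling. Its other probe gave 0.34. None of these readings overlapped between groups, before or after scaling. Unscaled, the brighter ced2 arrays made the differences larger, at 0.99 for MAF4 and 0.74 for probe A_84_P825225 of MAF5.

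The sign of MAF4 and MAF5 turned with 1 background correction. With normexp they differed by -0.35 and -0.81, while the other 7 genes kept their sign under quantile normalization, normexp and an offset of 50 added after scaling. Quantile normalization kept all 9 signs, with smaller differences of 0.34 for MAF4, 0.13 for MAF5 and -0.12 for SOC1. Normexp left the 5th percentile of all spots at 57.5 and 57.4 units on the ced2 arrays, against 144 and 160 on the WT arrays, although the spot signals above local background at that percentile were 13.5 and 12.5 units in the ced2 files, against 11 in both WT files. With normexp the median difference of the 8255 probes dim on all arrays was -1.71, against 0.27 without it, and that of all genes tested was -0.14, against 0.05. With the offset of 50, which treats all arrays alike, MAF4 differed by 0.42 and MAF5 by 0.19. The MAF genes are similar in sequence, and the probes may not separate them fully.

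**Figure D2:**
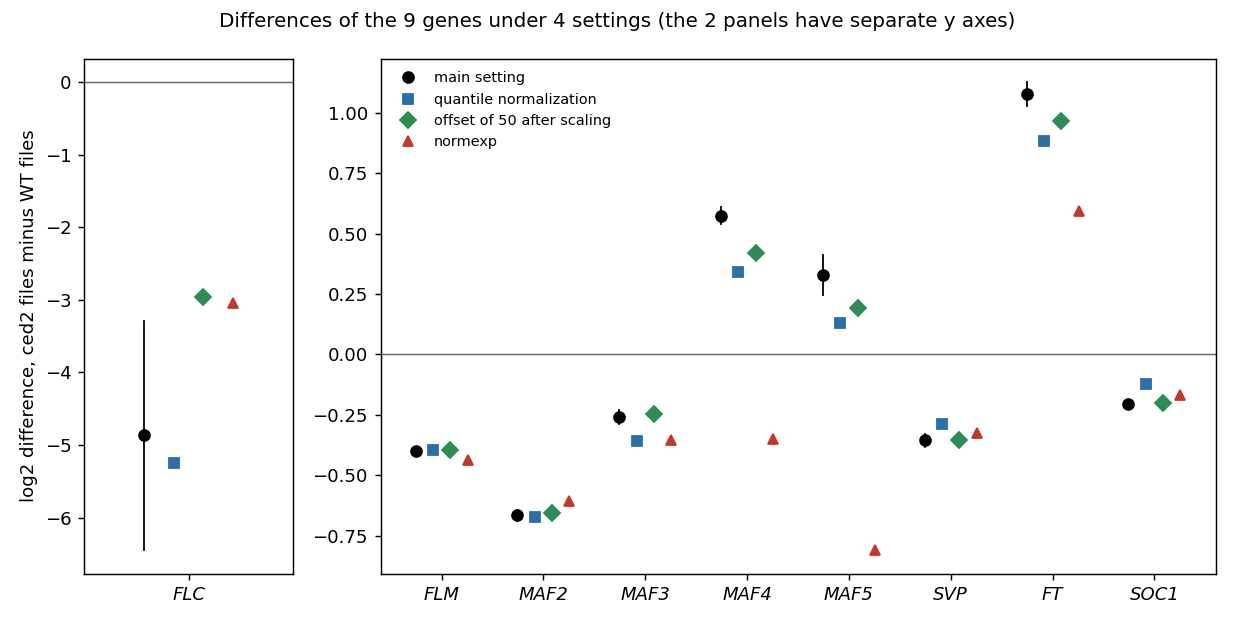
Log2 difference, ced2 files minus WT files, of the probe that represents each gene, under the main setting (circles, with a line for the range when 1 array is left out), quantile normalization (squares), an offset of 50 added after scaling (diamonds) and normexp (triangles), with FLC on its own y axis at left. FLC lies between -5.25 and -2.96 under the 4 settings, FT stays above 0 at 0.59 to 1.08, and MAF4 and MAF5 fall below 0 with normexp alone.

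Over the 9 genes, 6 differed below 0 and 3 above 0 in the ced2 files. The limma fit across all genes, at a Benjamini-Hochberg adjusted p of 0.05, called 77.9% of all genes tested, 42.4% as higher and 35.6% as lower. Nothing is read from its calls for the 9 genes, because they were chosen on this contrast. The arrays of the 2 groups did not overlap for 90.2% of all genes tested, and they did not for 20 of the 21 probes, from which nothing is read either. The median difference of the 9 was -0.26, against 0.05 over all genes tested. Replicate signals of the represented genes other than FLC had SDs of 0.003 to 0.12 on the log2 scale, less than the error of 10.01% (median) that the scanner software gives a single bright spot.

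By Euclidean distance between centred log2 profiles over the 4 arrays, GASA3, of a gibberellin-regulated family, AT2G19320 and AT2G04190 came closest to the probe that represents FLC, at 1.88, 1.96 and 2.12. GASA3 stood at -9.33 and -8.61 in the ced2 files, dim on both, against -4.85 in both WT files. The FLC probe was dim on ced2 replicate 1, and these distances use the readings of dim spots, so no order among such genes is read from them. For the other FLC probes, GLC was the nearest gene, at distances of 2.17 and 1.95. The nearest genes to the remaining members lay within 0.025 of them, a distance that says little with 4 arrays in 2 groups: AT1G26920 for FLM, AT4G12690 for MAF2, AT5G13810 for MAF3, AT3G14510 for MAF4, EMB2296 for MAF5, PME44 for SVP, AT5G62340 for FT and AT4G10790 for SOC1.

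Genes beside FLC on chromosome 5 did not share its difference. Of the 4 protein-coding genes on each side, 7 were tested, and their differences ran from -0.25 to 1.04. Of these, 4 were higher, 1 lower and 2 not past the threshold, which 77.9% of all genes tested passed. AT5G10130, next to FLC on one side, was the one that differed most and was higher in the ced2 files. It stood at -2.48 ± 0.06 in the ced2 files and -3.52 ± 0.18 in the WT files (SD, n = 2 each), a difference of 1.04 (adjusted p = 0.00252), or 0.56 with normexp. AT5G10150, next to FLC on the other side, was higher by 0.18 (adjusted p = 0.0178), a call that ended with the replicate block and without ced2 replicate 1 or WT replicate 1. MIPS3, an inositol phosphate synthase, was higher by 0.44 (adjusted p = 0.00111), AT5G10110 fell by 0.25 (adjusted p = 0.00306), and TPPI, a trehalose phosphatase, was higher by 0.18 (adjusted p = 0.0177), a sign that turned with quantile normalization (-0.03) and normexp (-0.12). The TPPI call was also lost with the replicate block and without ced2 replicate 1 or WT replicate 1. AT5G10160 and the sulfate transporter SULTR2;1 differed by -0.06 each and did not pass (adjusted p = 0.102 and 0.134). AT5G10120 was dim on all 4 arrays.

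MAF2 to MAF5 lie side by side on chromosome 5 with no other protein-coding gene between them. Of their 8 nearest neighbours, all tested, 5 were higher, 2 lower and 1 did not pass, beside 77.9% past the threshold over all genes tested. BST1, beside MAF5, was higher by 1.05 (adjusted p = 0.00044), although it turned to -0.35 with normexp, and AT5G65100, the next gene, was higher by 0.79 (adjusted p = 0.0154) and turned to -1.13, its call lost without either WT array. AT5G65040, beside MAF2, differed by -0.16 (adjusted p = 0.00609), a call lost without ced2 replicate 2. Further out, the annexin ANNAT2 was higher by 0.92 (adjusted p = 0.000243), the asparagine synthetase ASN2 by 0.58 (adjusted p = 0.00303) and AT5G65030 by 0.65 (adjusted p = 0.0146), the last turning to -0.21 with normexp and lost with quantile normalization or without either WT array. ACX2, an acyl-CoA oxidase, fell by 0.61 (adjusted p = 0.000796), and AT5G65120 differed by 0.06 and did not pass (adjusted p = 0.12).

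**Figure D3:**
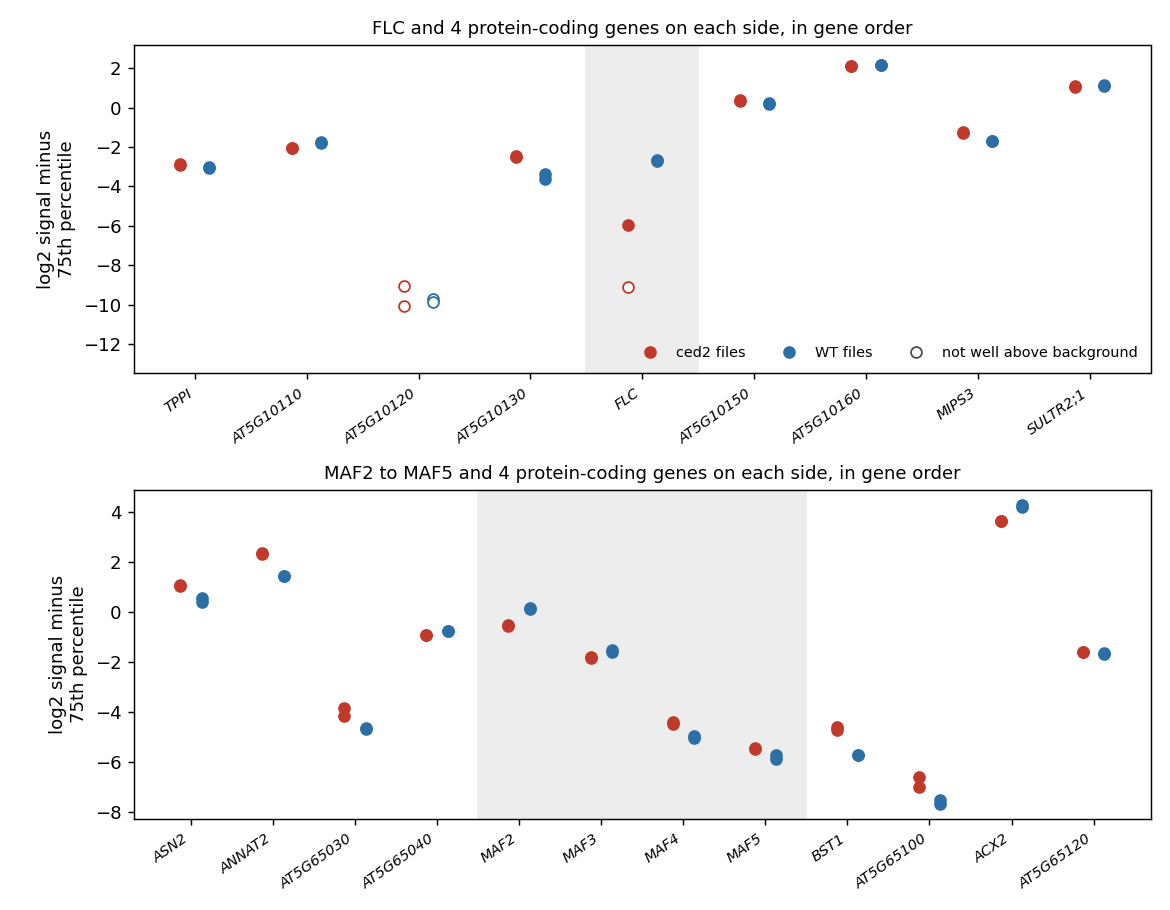
Log2 signal minus the 75th percentile of the array (y axis) for FLC (top) and for MAF2 to MAF5 (bottom), shaded, with 4 protein-coding genes on each side in gene order along x, 2 ced2 files in red at left and 2 WT files in blue at right of each position. Open points are spots not well above background. FLC differs by -4.87 for the probe shown, and the tested differences of the genes around it run from -0.25 to 1.04.

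Of 18 genes known to switch FLC on, 10 were lower in the ced2 files, 2 higher and 6 not past the threshold, with a median of -0.23. The share past the threshold was 66.7%, below the 77.9% of all genes tested. PIE1, which helps exchange histone H2A.Z at FLC, fell by 0.68 (adjusted p = 0.00047). HUB2, a histone H2B ubiquitin ligase, fell by 0.70 (adjusted p = 0.000482), VIP4, of the Paf1 complex, by 0.52 (adjusted p = 0.000804) and SUF4, which binds the FLC promoter with FRIGIDA, by 0.49 (adjusted p = 0.00124). FRI itself differed by 0.12 (adjusted p = 0.0172), which turned to -0.05 with quantile normalization and was not past the threshold with any 1 array left out.

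Of 10 autonomous pathway genes, whose loss is known to raise FLC, 5 were lower, 2 higher and 3 did not pass. Their median was -0.16, and 70% were past the threshold, against 77.9% of all genes tested. FCA, an RNA-binding protein that acts on the antisense transcripts of FLC, was lower. It stood at -1.69 and -1.74 in the ced2 files, against -0.26 and -0.37 in the WT files, a difference of -1.40 (SE 0.049, adjusted p = 0.000274), or -0.83 as the mean over its probes. The homeodomain gene LD fell by 0.64 (adjusted p = 0.000348), and the RNA-binding genes FPA and FLK by 0.47 and 0.31 (adjusted p = 0.000746 and 0.00166).

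Of 9 vernalization and Polycomb genes tested, 3 were higher, 3 lower and 3 did not pass, with a median of -0.01. Past the threshold were 66.7%, against 77.9% of all genes tested. LHP1, which binds Polycomb-marked chromatin, fell by 0.35 (adjusted p = 0.000781) and VRN2, a Polycomb subunit, by 0.39 (adjusted p = 0.001015). VRN5, a partner of VIN3, rose by 0.39 (adjusted p = 0.00152) and MSI1 by 0.21 (adjusted p = 0.0186), the latter no longer past the threshold without either ced2 array. VIN3, which cold induces, was not tested. It read well above background on ced2 replicate 1 alone (-4.60), against -10.08 on ced2 replicate 2 and -8.83 and -9.08 on the WT arrays.

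Among 13 photoperiod genes that act on FT, 5 were higher, 7 lower and 1 did not pass, with a median of -0.13. The share past the threshold was 92.3%, against 77.9% of all genes tested. CDF1, a repressor of CO and FT, rose by 0.99 (adjusted p = 0.000191). FKF1 and GI, which remove CDF1 in the afternoon, fell by 0.75 and 0.57 (adjusted p = 0.000221 and 0.000357), and NF-YC9, a partner of CO, fell by 0.51 (adjusted p = 0.000503). CO itself, the activator of FT, differed by -0.13 and did not pass (adjusted p = 0.0535). With quantile normalization CO differed by -0.38 (adjusted p = 0.0026) and with normexp by -0.57 (adjusted p = 0.00205), both past the threshold, and as the mean over its probes by 0.03. Several of these genes cycle over the day, and the labels give no harvest time, so a difference in time of harvest was not tested.

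Of the 9 tested genes among the other repressors of FT, 5 were lower, 3 higher and 1 did not pass, with a median of -0.17. Calls covered 88.9% of them, against 77.9% of all genes tested. SNZ and TOE2, of the AP2 family, fell by 0.54 and 0.27 (adjusted p = 0.000711 and 0.00196), as did TEM1 by 0.41 (adjusted p = 0.000566), while AP2 rose by 0.52 (adjusted p = 0.000936), or 0.29 with normexp. Of 6 tested relatives and partners of FT, 3 were higher, 2 lower and 1 did not pass, or 83.3% past the threshold. Their median was 0.21, or -0.35 with normexp. BFT and MFT, of the same protein family as FT, fell by 0.63 and 0.41 (adjusted p = 0.000502 and 0.00111). FD, the bZIP partner of FT, was higher by 0.26 (adjusted p = 0.01) and FTIP1, which helps FT leave companion cells, by 0.28 (adjusted p = 0.0106), and both calls were lost with quantile normalization. FD was dim on ced2 replicate 1 and turned to -1.26 with normexp. TSF, the closest copy of FT, was dim on all 4 arrays.

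Of 6 SPL factors of the age pathway, 5 fell and 1 rose, with a median of -0.32. All 6 were past the threshold, as were 77.9% of all genes tested. SPL5, SPL2 and SPL3, direct activators of flowering genes, fell by 0.85, 0.47 and 0.43 (adjusted p = 0.000245, 0.000436 and 0.00106). SPL15 was higher by 0.75 (adjusted p = 0.0165), but it was dim on WT replicate 1, lost the call without ced2 replicate 2 and turned to -1.10 with normexp.

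Of 7 tested meristem identity genes and SOC1-related MADS-box genes, 3 were higher, 2 lower and 2 did not pass. That is 71.4% past the threshold, against 77.9% of all genes tested. Their median was 0.13, which turned to -0.03 under quantile normalization and to -0.32 with normexp. AGL19, a MADS-box activator of flowering that Polycomb represses, was the lowest. It stood at -4.52 and -4.38 in the ced2 files, against -1.91 and -1.94 in the WT files, a difference of -2.53 (SE 0.0574, adjusted p = 0.000186). AGL14 fell by 0.43 (adjusted p = 0.000772), or by 0.68 with quantile normalization. AP1, the floral meristem gene that FT and FD activate, rose by 0.56 (adjusted p = 0.0019) but turned to -0.98 with normexp, and AGL42 rose by 0.19 (adjusted p = 0.0111), lost with quantile normalization. LFY was higher by 0.24 (adjusted p = 0.0128), which turned to -0.03 with quantile normalization. With normexp it turned to -0.32, past the threshold as lower (adjusted p = 0.0214). AGL71 and AGL72, close relatives of SOC1, were well above background on ced2 replicate 2 alone, the array on which 1 FLC probe stood apart.

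In all, 39 of 78 tested flowering regulators outside the 9 genes were lower and 22 higher, or 78.2% past the threshold, close to the 77.9% of all genes. Their median was -0.13, against 0.05 over all genes tested. Fewer of these regulators were higher without ced2 replicate 2, in a fit with a single ced2 array.

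**Figure D4:**
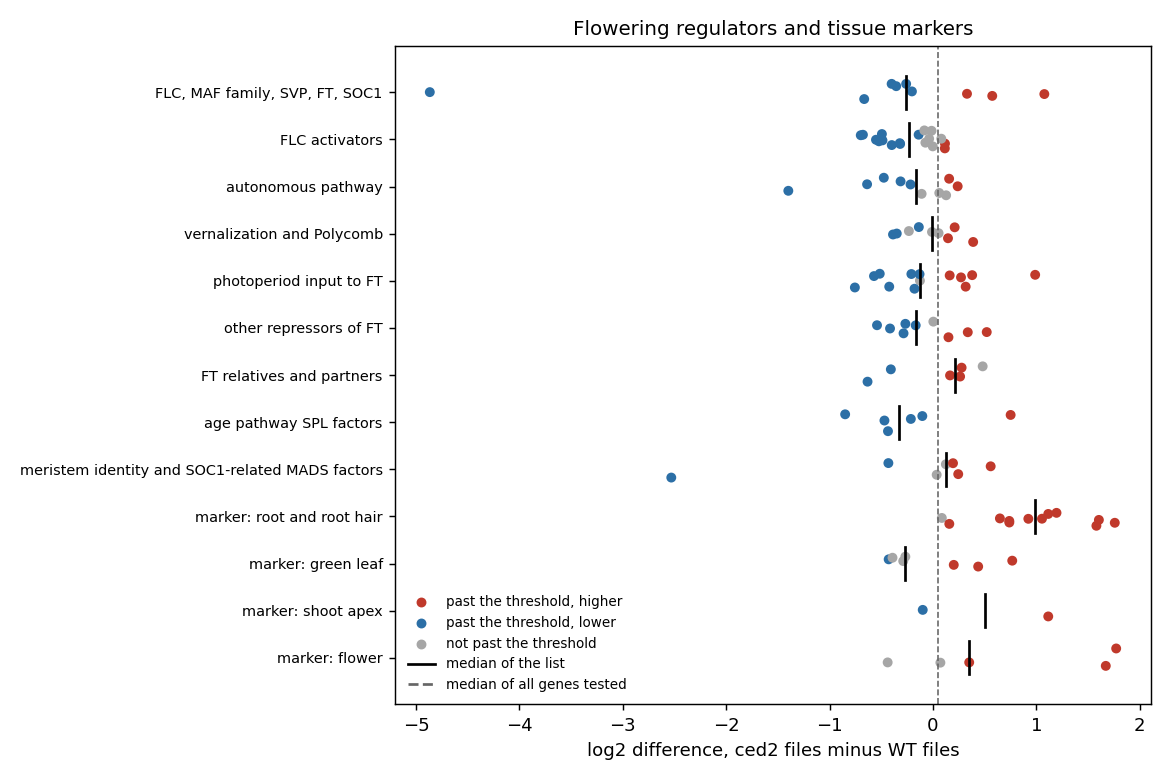
Each point is 1 tested gene, placed by its log2 difference (ced2 files minus WT files), red where higher and blue where lower past an adjusted p of 0.05, grey otherwise, with a black bar at the median of each row and a dashed line at the median of all genes tested. FLC at -4.87, AGL19 at -2.53 and FCA at -1.40 lie farthest left, and the root markers have a median of 0.99. The top row holds FLC and the other genes chosen on this contrast, so nothing is read from its colours.

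Tissue markers were compared beside these results. Past the threshold were 91.7% of root, 57.1% of green leaf and 60% of flower genes tested, against 77.9% of all genes. In the shoot apex list it was 100% of the 2 tested. Of 12 root and root hair genes, 11 were higher, 0 lower and 1 did not pass, with a median of 0.99, or 0.11 with normexp. Their summed linear signal, relative to the 75th percentile, was 1.59 and 1.58 in the ced2 files, against 0.972 and 0.971 in the WT files. Of 7 green leaf genes, 3 were higher, 1 lower and 3 did not pass. Their median was -0.27, or -0.17 with normexp, and it turned to 0.13 with quantile normalization. Their summed signal, in which the brightest genes weigh most, was 503 and 428 in the ced2 files, against 532 and 616 in the WT files. Of 5 flower genes, 3 were higher, 0 lower and 2 did not pass, with a median of 0.35, or -0.27 with normexp. Their sums were 0.666 and 0.677 in the ced2 files, against 0.443 and 0.417 in the WT files. SEP1 and AP3 were higher by 1.67 and 1.77, the latter turning to -0.50 with normexp. In the shoot apex list KNAT1 was higher by 1.12 (0.05 and not past the threshold with normexp) and STM differed by -0.10 (0.10 as the mean over its probes), while CLV3, WUS and CUC2 were dim on all 4 arrays, with sums of 0.198 and 0.201 in the ced2 files, against 0.176 and 0.173 in the WT files. In whole seedlings, fewer cells of a type and less RNA per cell cannot be told apart, and the part of tissue makeup in the differences of FLC and FT was not tested.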

How the data were processed

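The data are 2 ced2 and 2 WT arrays, 1 per RNA pool. Per the file headers, the deposited intensity values come from Agilent Feature Extraction 10.7.1.1, whose processed signal is background-subtracted. The authors' deposited log2 value table, centred per probe on the median, served as an alternative. Its columns have medians of 0.01, -0.03, 0.08 and -0.03, and its scale, centring and labels were found by comparison with the scanner files, whose own-label correlations were -0.369 to -0.573.

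Control spots and spots with outlier flags were left out, and the remaining spots of a probe were averaged. The 70 probes whose every spot was an outlier on an array were dropped, which gave 43533 probes. Log2 processed signal was taken minus each array's 75th percentile. A gene was represented by its probe with the highest mean over the 4 arrays and tested if well above background on both arrays of a group (20835 genes). The ced2 and WT arrays went into a linear model in limma 3.58.1 (R 4.3.3, lmFit then eBayes) with Benjamini-Hochberg adjustment at 0.05, on 2 residual degrees of freedom, and the fit was tested on simulated data. The number of arrays limits the precision. Fold bounds set a dim spot to the higher of its own signal and the lowest signal well above background on its array.

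Members and lists were chosen with earlier results of these data known. Named are all members, up to 4 genes of each flowering list past the threshold by smallest p, all neighbours and the genes nearest in profile. Other genes named, such as FRI, CO, LFY and VIN3, were chosen after their values were seen. Gene names and order come from the RefSeq TAIR10.1 table. Alternatives were quantile normalization, normexp, other filters, other probes, an offset, an intensity trend, a replicate block, the authors' table and leaving out each array. Same-numbered deviations correlated at 0.05, and the main fit did not pair the samples. That correlation cannot show whether same-numbered samples were handled together.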

Additional observations from a re-analysis of the deposited data

How the results depend on the processing

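With normexp, 5696 of the tested genes were higher, against 8831 without it, as were 1 of the 9 genes (3 without it; nothing is read from counts of the 9, which were chosen on this contrast), 12 flowering regulators (22) and 5 neighbours (9), while 5 neighbours were lower (3). FLC then differed by -3.05, MAF4 by -0.35 and MAF5 by -0.81, and normexp left unequal floors on the arrays of the 2 groups. Under the labels of the authors' value table all signs turned, and 6 of the 9 genes differed above 0 and 3 below 0. Of the flowering regulators 39 were then higher and 22 lower, and of the neighbours 3 were higher and 9 lower. The differences were then 4.87 for FLC, 0.40 for FLM, 0.67 for MAF2, 0.26 for MAF3, -0.57 for MAF4, -0.33 for MAF5, 0.36 for SVP, -1.08 for FT and 0.20 for SOC1. FLC also differed by -6.57 as the mean of its probes, by -2.96 with an offset of 50, and by -7.48 and -7.37 on its other probes. The offset and the other FLC probes were chosen after seeing the data.

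With 1 array left out, FLC ranged from -6.45 to -3.29, FLM from -0.41 to -0.39, MAF2 from -0.69 to -0.64, MAF3 from -0.29 to -0.23, MAF4 from 0.54 to 0.61, MAF5 from 0.25 to 0.41, SVP from -0.38 to -0.33, FT from 1.03 to 1.13 and SOC1 from -0.21 to -0.19. Between 7752 and 8485 genes were higher and 6390 to 6916 lower. Of the 9 genes, 2 to 3 were higher and 5 to 6 lower, of the flowering regulators 11 to 21 and 32 to 41, and of the neighbours 5 to 9 and 2 to 3, the 5 without WT replicate 1. With the replicate block, 8574 genes were higher and 7113 lower, 22 flowering regulators were higher and 37 lower (39 without it), 7 neighbours were higher (9 without it, AT5G10150 and TPPI being lost) and 3 lower, and FLC differed by -4.87. The slide was not run as a block because all arrays share 1. Requiring signal above background on all 4 arrays gave no value for FLC, because the probe that represents it was dim on ced2 replicate 1. The dim FLC readings are only bounds.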
